A study of Mus musculus with 2 samples.

Results

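The collagen genes were taken by name: every gene whose symbol is Col, a type number, the letter a and a chain number. This gave 44 of the 27998 genes listed for both libraries, and the naming rule itself uses no measured value. The cells came from eye organoids, which are balls of neural tissue grown in culture from mouse embryonic stem cells and which form optic vesicles, the pouches from which the retina arises. All cells, on both days, descended from 1 stem cell line with a green fluorescent protein gene knocked in at the Rax locus in the heterozygous state, and no group received another genotype or agent. Single cells were read with the 10x Genomics 3' v2 kit in 1 library for culture day 4 and 1 library for culture day 6. Each library pooled 3 biological experiments that cannot be told apart, so each day is 1 sample, no test between days was possible, and every 95% interval below covers counting error only.

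Collagens are secreted proteins whose chains wind around each other into a helix and then assemble outside the cell. Fibrillar collagens form the fibrils of connective tissue, cartilage and the vitreous of the eye, fibril-associated collagens such as type IX coat them, and type IV collagen is the network of the basement membrane, the sheet on which epithelia such as the optic vesicle rest. Chains are modified and folded in the endoplasmic reticulum with the help of prolyl and lysyl hydroxylases and the collagen chaperone Hsp47, the product of Serpinh1.

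After filtering, the day 4 library held 8147 cells with a median of 11216 unique molecular identifiers (UMIs, each standing for 1 captured transcript) and the day 6 library 6641 cells with a median of 12514, and 78 of the kept barcodes occurred in both. Levels are CPM, the per-million scale of a gene's UMIs among all UMIs of the summed cells. A 3' tag is counted once per molecule, so these levels do not grow with transcript length, and 3 UMIs in a library correspond to 0.0304 CPM on day 4 and 0.0342 CPM on day 6. The labels call the cells retina progenitors. Of the optic vesicle markers, Rax had 3.45 CPM on day 4 and 94.3 CPM on day 6, Pax6 4.61 and 247 CPM and Lhx2 4.47 and 112 CPM. These markers of the label were thus detected but low on day 4 and far higher on day 6. A higher level per library can mean more RNA per cell or more cells with the RNA, which is why the levels were also taken within groups of cells.

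Collagen transcripts were scarce on both days but more abundant on day 6. All 44 genes together gave 10282 UMIs (104 CPM) on day 4 and 24866 UMIs (283 CPM) on day 6, a ratio of 2.72 (95% interval 2.66 to 2.78). At least 1 UMI was found for 43 genes on day 4 and for 44 on day 6. Col10a1, the collagen of growth plate cartilage, had 0 UMIs on day 4, under 0.0304 CPM if 3 UMIs are taken as the floor, and 1 UMI on day 6. A level of 1 CPM was reached by 11 genes on day 4 and by 18 on day 6. Of the 44 genes, 16 had a mean of at least 1 CPM over the days and are called measured here, and 28 did not. Among the 16, 12 were at least 1.5-fold higher on day 6, 3 were at least 1.5-fold lower and 1 lay between these limits. Of the 12, 5 (Col9a1, Col3a1, Col4a5, Col4a6 and Col11a1) were under 1 CPM on day 4 and passed the limit on the level only through day 6, where they were high, and Col7a1 passed only through day 4. Such genes had to differ, so the counts describe the members and support nothing further. Of all 11923 genes at that level, 18.5% were at least 1.5-fold higher on day 6 and 11.7% at least 1.5-fold lower. The median log2 ratio of day 6 over day 4 was 2.11 for the 16 collagen genes and 0.13 for the 11923 genes. Just inside the limit stood Col7a1 with a mean of 1.25 CPM, and just outside it Col26a1 with 0.995 CPM.

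**Figure D1:**
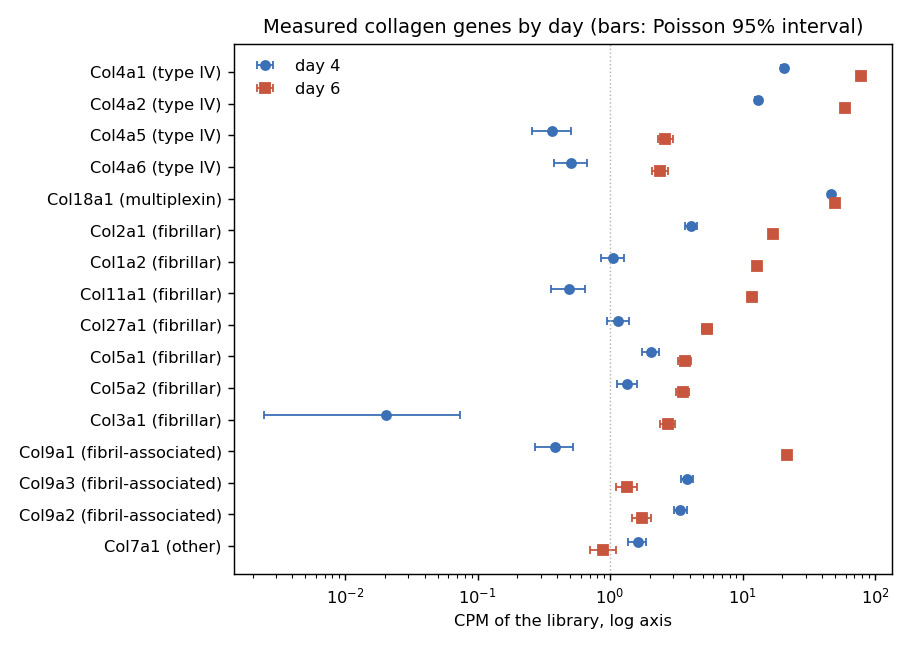
The level of each measured collagen gene is plotted for the day 4 library (circles) and the day 6 library (squares) in CPM on a log axis, with Poisson 95% intervals and a dotted line at 1 CPM. Of the 16 genes, 12 lie at least 1.5-fold higher on day 6, Col9a2, Col9a3 and Col7a1 lie lower, and the points of Col18a1 nearly meet at 46.6 and 49.8 CPM.

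The type IV chains were the largest family on day 6. Their 6 genes gave 33.2% of collagen UMIs on day 4 and 50.4% on day 6, and all 4 measured members were higher by size. Col4a1 (ENSMUSG00000031502), which with Col4a2 forms the type IV network found in nearly every basement membrane, had 2017 UMIs (20.4 CPM) on day 4 and 6907 UMIs (78.7 CPM) on day 6, a ratio of 3.85 (3.66 to 4.04). Col4a2 (ENSMUSG00000031503) had 13.2 and 59.1 CPM, a ratio of 4.49 (4.22 to 4.77). The chains therefore stood in a UMI ratio of Col4a1 to Col4a2 of 1.55 (1.45 to 1.67) on day 4 and 1.33 (1.28 to 1.38) on day 6. Col4a5 and Col4a6, which form a network of their own in other basement membranes, were much scarcer. Col4a5 had 0.365 and 2.61 CPM, a ratio of 7.15 (5.01 to 10.5). Col4a6 had 0.507 and 2.39 CPM, a ratio of 4.72 (3.45 to 6.56). Col4a3 and Col4a4, the chains of the mature kidney filter, had at most 10 UMIs in a library.

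Col4a1 and Col4a2 are neighbours on chromosome 8 that point away from each other, and they are shown here because both were higher on day 6 by similar ratios and their starts lie in 1 stretch of DNA. In the GRCm38 annotation Col4a1 runs on the minus strand from 11198423 to 11312826 and Col4a2 on the plus strand from 11312805 to 11449287, so that their first 22 bases overlap. The tags counted here come from the other ends of these genes. The RefSeq promoter windows, 250 bases before to 50 bases after each start on GRCm38.p6, are chr8:11312777-11313076 (minus strand) for Col4a1 and chr8:11312555-11312854 (plus strand) for Col4a2. Capitals mark the 78 bases that both windows hold, each read on its own strand.
Col4a1: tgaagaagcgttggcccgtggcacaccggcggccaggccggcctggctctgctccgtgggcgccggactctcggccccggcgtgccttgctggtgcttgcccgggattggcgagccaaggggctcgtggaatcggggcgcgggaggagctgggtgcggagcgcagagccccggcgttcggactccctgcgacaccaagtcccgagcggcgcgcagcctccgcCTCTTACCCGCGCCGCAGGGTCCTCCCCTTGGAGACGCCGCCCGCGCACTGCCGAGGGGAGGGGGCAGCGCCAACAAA
Col4a2: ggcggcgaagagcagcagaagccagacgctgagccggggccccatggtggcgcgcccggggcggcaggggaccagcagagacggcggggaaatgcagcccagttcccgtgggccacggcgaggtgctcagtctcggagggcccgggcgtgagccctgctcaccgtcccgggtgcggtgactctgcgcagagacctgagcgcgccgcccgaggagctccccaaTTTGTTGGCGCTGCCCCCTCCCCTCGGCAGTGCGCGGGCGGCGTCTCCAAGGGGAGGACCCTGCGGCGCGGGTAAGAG
The windows are rich in G and C, at 74% and 73.7% against a median of 52.7% over all promoters in the table. Both strands were searched for short motifs. The CCAAT box, spelled CCAAT, occurred once in each window and in 37.4% of all 32851 promoters. The GC box, spelled GGGCGG, occurred 1 time in the Col4a1 window and 3 times in the Col4a2 window, against 35.7% of all promoters with at least 1. The TATA box TATAAA (13.6% of all promoters), the GATA site AGATAA (11.2%) and the homeobox core TAATTA (5.29%) were in neither window. The other type IV genes stand in pairs of the same kind, with 71 bases between the starts of Col4a4 and Col4a3 on chromosome 1 and 1308 bases between those of Col4a6 and Col4a5 on the X chromosome.

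Col18a1, the basement membrane collagen whose end fragment is endostatin, was the leading collagen of day 4 and hardly differed between the days. It had 4593 UMIs (46.6 CPM) on day 4 and 4370 UMIs (49.8 CPM) on day 6, a ratio of 1.07 (1.03 to 1.11), and 0.974 once the median log2 ratio of all genes is set to 0. It gave nearly all of the 44.7% of collagen UMIs that the multiplexin family, type XV and type XVIII, held on day 4, and that share was 17.6% on day 6. Its relative Col15a1 had 6 and 3 UMIs.

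All 7 measured fibrillar genes were higher on day 6, and the 11 fibrillar genes together had 10.9 and 57.8 CPM, a ratio of 5.30 (4.96 to 5.67). Col2a1, the main collagen of cartilage and of the vitreous, led the family on both days with 4.09 and 16.9 CPM, a ratio of 4.13 (3.69 to 4.62). Col1a2, the second chain of type I collagen of bone and skin, had 104 UMIs (1.05 CPM) and 1124 UMIs (12.8 CPM), a ratio of 12.1 (9.93 to 15.0). Its partner chain Col1a1 stayed scarce: it had 25 and 40 UMIs, so the UMI ratio of Col1a2 to Col1a1 was 4.16 (2.67 to 6.72) on day 4 and 28.1 (20.5 to 39.5) on day 6. Col11a1, a chain of the thin core fibril that type II collagen is laid on, had 0.487 and 11.7 CPM, a ratio of 24.1 (18.0 to 32.8). Its partner Col11a2 had 10 and 17 UMIs.

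The other fibrillar genes were lower in level. Col27a1, a fibrillar collagen of developing cartilage, had 1.16 and 5.39 CPM, a ratio of 4.66 (3.79 to 5.77). Col5a1, whose chain starts and limits type I fibrils, had 2.03 and 3.66 CPM, a ratio of 1.80 (1.51 to 2.16). Its partner chain Col5a2 had 1.34 and 3.53 CPM, a ratio of 2.64 (2.15 to 3.26). Col3a1, the collagen of soft connective tissue, had the largest ratio of the measured genes and the fewest day 4 UMIs: 2 UMIs on day 4 and 239 on day 6 (0.0203 and 2.72 CPM), a ratio of 134 with an interval from 36.8 to 1115. The 4 fibrillar genes that were not measured, Col1a1, Col5a3, Col11a2 and Col24a1, had between 6 and 32 UMIs on day 4 and between 8 and 40 on day 6.

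The chains of type IX collagen, which coats type II fibrils and needs Col9a1, Col9a2 and Col9a3 together for its full molecule, went opposite ways. Col9a1 had 38 UMIs (0.385 CPM) on day 4 and 1908 UMIs (21.7 CPM) on day 6, a ratio of 56.4 (40.9 to 80.0). Col9a2 had 335 and 152 UMIs (3.40 and 1.73 CPM), a ratio of 0.510 (0.418 to 0.619). Col9a3 had 377 and 117 UMIs (3.82 and 1.33 CPM), a ratio of 0.349 (0.281 to 0.430). Col9a1 was thus the scarcest of the type IX chains on day 4, at 0.113 UMIs per Col9a2 UMI, and the most abundant on day 6, at 12.6. Col7a1, the anchoring fibril collagen of skin, was the other gene that was lower on day 6, with 1.61 and 0.888 CPM and a ratio of 0.551 (0.415 to 0.727).

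Col9a1 (ENSMUSG00000026147; chromosome 1, 24177610 to 24252684, plus strand, GRCm38) has its own windows shown because RefSeq gives it more than 1 start. The windows on GRCm38.p6 are chr1:24177360-24177659 at the upstream start and chr1:24194953-24195252 at the downstream start, both on the plus strand. Capitals mark a CCAAT box, which only the downstream window holds, and none of the other motifs searched is in either window.
Col9a1 upstream start: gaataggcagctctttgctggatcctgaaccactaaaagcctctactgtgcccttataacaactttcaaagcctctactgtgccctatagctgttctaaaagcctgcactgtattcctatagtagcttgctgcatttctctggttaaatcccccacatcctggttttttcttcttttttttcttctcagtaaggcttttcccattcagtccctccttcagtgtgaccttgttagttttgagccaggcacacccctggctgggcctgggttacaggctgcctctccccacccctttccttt
Col9a1 downstream start: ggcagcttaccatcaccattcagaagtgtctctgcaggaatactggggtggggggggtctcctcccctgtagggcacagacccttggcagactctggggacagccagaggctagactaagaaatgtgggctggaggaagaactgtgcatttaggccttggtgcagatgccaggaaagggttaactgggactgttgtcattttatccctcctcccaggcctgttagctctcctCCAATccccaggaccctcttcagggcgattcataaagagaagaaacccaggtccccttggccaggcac
The windows hold 47.3% and 55.7% G and C. Transcripts from both starts end alike, so the 3' tags cannot say which start the UMIs of Col9a1 came from.

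The 28 genes that were not measured had at most 0.446 CPM on day 4 and had at most 140 UMIs on day 6. Of these, 3 reached 1 CPM on day 6. Col26a1 had 39 and 140 UMIs, a ratio of 4.03 (2.81 to 5.91). Col23a1, a transmembrane collagen, had 19 and 125 UMIs, a ratio of 7.39 (4.54 to 12.7). Col22a1, a collagen of tissue junctions, had 30 and 95 UMIs, a ratio of 3.56 (2.34 to 5.56). Among the scarcer fibrillar genes, Col24a1 had 6 and 38 UMIs, a ratio of 7.12 (2.98 to 20.6), and Col5a3 had 32 and 8 UMIs, a ratio of 0.281 (0.112 to 0.622). The 6 type VI genes, whose beaded filaments surround cells of connective tissue and muscle, gave 114 UMIs in all on day 4 and 79 on day 6, with no member above 44 UMIs. The 3 short chain genes of types VIII and X gave 7 and 19 UMIs. The 4 transmembrane genes gave 39 and 190 UMIs, of which Col23a1 held most.

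How a collagen was spread over the cells differed between members. Cells were thinned to 5000 UMIs each so that depth would not set the share of cells with a UMI. Col18a1 was found in 19.8% of thinned cells on day 4 and 21.7% on day 6, with at most 7 UMIs in a cell. Col4a1 was found in 4.83% and 10.2% and reached 96 and 225 UMIs in a cell. The most Col4a1-rich cells, 25 on day 4 and 61 on day 6, were enough to hold 50% of its UMIs. Col9a1 was found in 0.151% and 9.10%, Col2a1 in 1.86% and 8.27%, Col11a1 in 0.301% and 5.81% and Col1a2 in 0.515% and 5.56% of thinned cells, and Col9a1 never exceeded 8 UMIs in a cell. Col3a1 was found in 0.753% of thinned day 6 cells, with up to 12 UMIs in a cell. Col4a1, Col4a2 and Col3a1 UMIs were thus concentrated in few cells, whereas those of Col18a1 were thinly spread over many.

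Cells were then grouped by raw UMIs of genes that are no collagens. At least 5 UMIs of Dppa5a, a gene of pluripotent cells, or at least 2 UMIs of another marker put a cell in a group. The other markers were Fgf5 of the primed epiblast, Six6 of the eye field and optic vesicle, Fezf2 of the anterior forebrain, Wnt8b of the dorsal forebrain, Sox10 of neural crest, and Gata4, Gata6 and Sox17 of endoderm, summed. A cell past more than 1 threshold was left out of every group. Day 4 held 1325 Dppa5a cells, 2909 Fgf5 cells, 71 Fezf2 cells, 19 Six6 cells and 7 Gata4/Gata6/Sox17 cells. Day 6 held 490 Dppa5a, 26 Fgf5, 1877 Six6, 600 Fezf2, 239 Wnt8b, 25 Sox10 and 64 Gata4/Gata6/Sox17 cells, and 2918 cells past no threshold. A group of fewer than 50 cells is given by values only.

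Other markers went with these labels on day 6. The Six6 cells had 178 CPM of Rax and 383 CPM of Pax6, the Dppa5a cells 277 CPM of Zfp42 and 283 CPM of Tdgf1, the Wnt8b cells 93.8 CPM of Rspo3 and the Sox10 cells 150 CPM of Tfap2b. The Gata4/Gata6/Sox17 cells had 688 CPM of Dab2, 258 of Amn, 134 of Cubn and 109 of Foxa2, and all 5 endoderm markers, Sox7 included, were detected and summed to 1215 CPM against 37.8 CPM in the whole library. They are called endoderm-like. These cells also had 460 CPM of Krt18 and 403 CPM of Krt8, keratins of simple epithelia, and 176 CPM of Pdgfra, a receptor that mesenchyme and early endoderm share.

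The type IV chains Col4a1 and Col4a2 were by far highest in the endoderm-like cells. On day 6 Col4a1 stood at 3589 CPM (3449 to 3733) and Col4a2 at 2671 CPM (2551 to 2795) in the 64 cells, which is 70.8 (67.4 to 74.4) and 69.8 (66.0 to 73.9) times the level in the other cells. All 44 collagen genes together had 6304 CPM there, against 160 to 207 CPM in the Dppa5a, Six6, Fezf2, Wnt8b and Sox10 cells and the cells with no marker. Every one of the 64 cells had both chains after thinning, whereas Col4a1 was found in 7.33% to 12.2% of the thinned cells of the other groups with at least 50 cells.

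Few cells thus carried much of the type IV signal. The 64 cells held 0.791% of all day 6 UMIs but 36.1% of the Col4a1 UMIs and 35.8% of the Col4a2 UMIs. Another 89 day 6 cells past the same threshold were all also past that of Dppa5a, and so were left out of the group and counted among the other cells. With them in the group, Col4a1 and Col4a2 stood at 130 and 126 times the other cells. In all, 153 cells on day 6 and 46 on day 4 held 74.4% and 57.6% of the Col4a1 UMIs and 73.8% and 63.1% of the Col4a2 UMIs. Of the 153 cells, 149 (97.4%) had Col4a1, with a median of 27 UMIs and up to 225, and 148 of these 149 also had Col4a2. Of the 46 day 4 cells, 40 (87.0%) had Col4a1, with a median of 19.5 UMIs and up to 96, and 39 of the 40 also had Col4a2.

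The endoderm-like cells differed from the others in more collagens than these. Of 8 collagen genes with a mean of at least 5 CPM over both sides, 3 were at least 2-fold higher in them and 5 at least 2-fold lower, where 24.2% of all genes at that level were higher and 14.4% lower. Of the 5, 4 (all but Col18a1) passed the limit on the level only through the other cells. The third higher gene was Col27a1, with 13 UMIs (18.7 CPM) and a ratio of 3.54 (1.87 to 6.12). Col18a1 had 6 UMIs (8.63 CPM) and a ratio of 0.172 (0.0632 to 0.375), and it was found in 3.12% of these cells against 18.8% to 25.5% in the other groups with at least 50 cells. Col2a1, Col1a2, Col9a1 and Col11a1 had 1 or 2 UMIs each, with ratios of 0.170, 0.112, 0.132 and 0.244. The group with the most Col4a1 was thus the group with the least Col18a1.

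**Figure D2:**
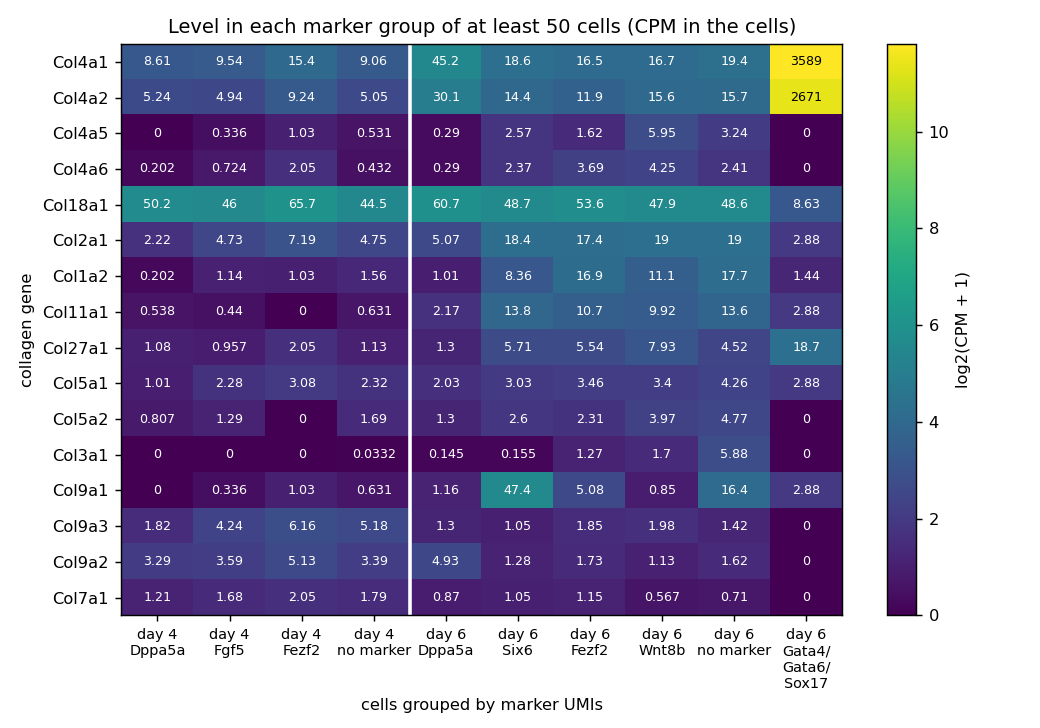
Each cell of the heat map gives the level in CPM, printed and coloured as log2(CPM + 1), of a measured collagen gene in a group of at least 50 cells, day 4 left of the white line and day 6 right of it. Col4a1 and Col4a2 reach 3589 and 2671 CPM in the endoderm-like cells of day 6, Col9a1 reaches 47.4 CPM in the Six6 cells, and Col18a1 lies between 44.5 and 65.7 CPM in every group but the endoderm-like one.

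Outside the endoderm-like cells, type IV chains were found at a low level in every group. On day 6 Col4a1 was at 18.6 CPM in the Six6, 16.5 in the Fezf2, 16.7 in the Wnt8b and 19.4 in the no-marker cells, and at 45.2 CPM in the Dppa5a cells. For Col4a2 the levels in these groups were 14.4, 11.9, 15.6, 15.7 and 30.1 CPM. RNA set free from broken cells can enter any droplet, so each level was set against the level in all 153 cells past the endoderm threshold, beside that of endoderm markers. In the Six6 cells Col4a1 stood at 0.694% and Col4a2 at 0.721% of that level, whereas Cubn, Amn, Foxa2 and Sox7 summed to 0.153% and Dab2 stood at 0.766%. In the Fezf2 cells Col4a1 stood at 0.617%, Col4a2 at 0.596%, the 4 markers at 0.291% and Dab2 at 1.07%. In the Wnt8b cells the values were 0.624%, 0.782%, 0.223% and 0.989%. In the Dppa5a cells they were 1.69%, 1.51%, 2.26% and 1.58%, so there the type IV chains were lower than the 4 summed markers.

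The type IV chains therefore exceeded the 4 summed markers, but not Dab2, in the Six6, Fezf2 and Wnt8b cells. In the Wnt8b cells the interval of the 4 markers (0.0724% to 0.523%, from 5 UMIs) overlapped that of Col4a1 (0.475% to 0.807%). Amn alone stood at 0.171% in the Six6, 0.507% (0.269% to 0.875%) in the Fezf2 and 0.287% in the Wnt8b cells. In the no-marker cells Col4a1 stood at 0.724%, Col4a2 at 0.788%, the 4 markers at 0.390% and Dab2 at 1.15%. Dab2 is also used by other epithelia. The part of free RNA in these levels was not tested further. Among day 6 cells under the endoderm threshold, 1273 of 6488 (19.6%) had a Col4a1 UMI. Of these, 267 (21.0%) also had Col4a2, against 14.9% of the cells without Col4a1. These shares come from cells that were not thinned, and deeper cells show both genes more easily. They also pool the Dppa5a cells with groups of lower type IV level, so they are a description.

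**Figure D3:**
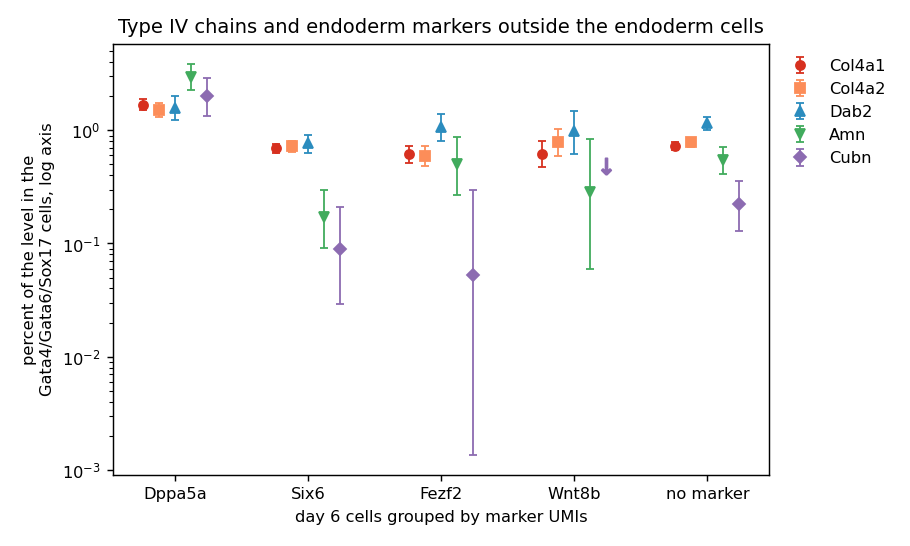
The level of Col4a1, Col4a2 and the endoderm markers Dab2, Amn and Cubn in 5 groups of day 6 cells is plotted as a percent of their level in all 153 cells past the endoderm threshold, on a log axis with 95% intervals (counting error only). An arrow stands for 0 UMIs and points down from the upper bound. In the Six6 cells the type IV chains lie at 0.694% and 0.721%, above Amn and Cubn but not above Dab2 at 0.766%. In the Dppa5a cells they lie at 1.69% and 1.51%, below Amn.

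Because of these cells, the day ratios of the type IV chains depended on which cells were counted. Without every cell past the endoderm or the Sox10 threshold, 46 on day 4 and 178 on day 6, Col4a1 had 8.73 and 20.6 CPM, a ratio of 2.36 (2.17 to 2.56), in place of 3.85. Col4a2 had 4.89 and 15.9 CPM, a ratio of 3.24 (2.92 to 3.61), in place of 4.49. The ratios of other members hardly moved: Col9a1 had 57.4, Col11a1 24.4, Col1a2 12.1, Col3a1 132 and Col18a1 1.09. Within the 46 and 153 cells past the endoderm threshold, Col4a1 had 1819 CPM on day 4 and 2678 on day 6, a ratio of 1.47 (1.38 to 1.57), and Col4a2 1283 and 1994 CPM, a ratio of 1.55 (1.44 to 1.68).

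Col9a1 was higher in the Six6 cells than in every other group. It was the only 1 of 8 collagen genes at 5 CPM or more that was at least 2-fold higher there than in the other day 6 cells, where 0.567% of all genes were. Col4a1 and Col4a2 made 2 of 8 that were at least 2-fold lower (2.82% of all genes), and the other side of their ratios held the endoderm-like cells. Col9a1 stood at 47.4 CPM (44.8 to 50.2) in the 1877 Six6 cells, a ratio of 4.28 (3.89 to 4.70), against 16.4 CPM in the no-marker, 5.08 in the Fezf2, 0.85 in the Wnt8b and 1.16 in the Dppa5a cells. After thinning it was found in 19.6% of the Six6, 6.79% of the no-marker, 2.50% of the Fezf2, 0.418% of the Wnt8b and 0.612% of the Dppa5a cells, at median depths of 12832, 11436.5, 13724, 14041 and 13620 UMIs before thinning. The Wnt8b and Dppa5a shares were the lowest of those listed, and the Fezf2 and no-marker shares lay between them and the Six6 share. The Six6 cells held 29.3% of all day 6 UMIs and 63.9% of the Col9a1 UMIs, and the no-marker cells 30.3%. The other type IX chains did not share this pattern. Col9a2 was at 1.28 CPM and Col9a3 at 1.05 CPM in the Six6 cells, so that Col9a1 had 37.0 UMIs (26.2 to 54.0) per Col9a2 UMI there and 0.235 (0.0941 to 0.518) in the Dppa5a cells.

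Col9a1 was also higher in cells with more Six6. Day 6 cells outside the Dppa5a, Sox10 and endoderm thresholds were grouped by 0, 1, 2, 3 to 4 and 5 or more Six6 UMIs, a grouping chosen after the data were seen. Col9a1 stood at 8.46 (7.58 to 9.41), 29.9, 37.6, 44.1 and 52.3 CPM in this order. The median depth of these cells was 12244, 11705, 11801, 12506 and 14671 UMIs, and deeper cells reach a Six6 count more easily. Rax, the gene that carries the reporter, stood at 55.3, 122, 150, 162 and 200 CPM, and Wnt8b at 34.7, 7.07, 3.43, 1.79 and 1.78 CPM. Col1a2 ran the other way, with 17.5, 15.0, 14.5, 8.12 and 5.88 CPM. Col3a1 was at 5.53 CPM (4.82 to 6.31) in the cells without Six6 and at 0.41, 0, 0 and 0.36 CPM in the others, from 4, 0, 0 and 4 UMIs. Of the more abundant collagens, Col18a1 lay between 47.5 and 50.4 CPM, Col2a1 between 17.4 and 19.5 and Col4a1 between 16.6 and 19.9.

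**Figure D4:**
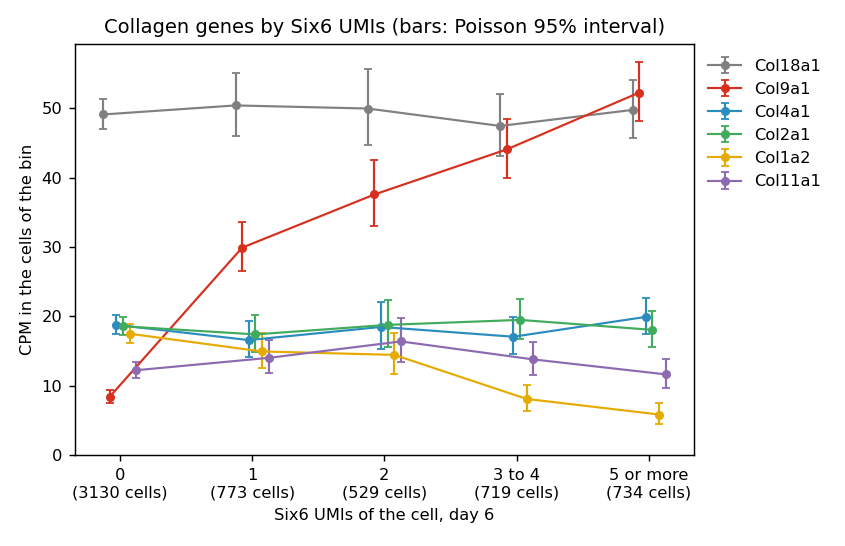
The level of 6 collagen genes in CPM is plotted against the Six6 UMIs of the cell for day 6 cells outside the Dppa5a, Sox10 and Gata4/Gata6/Sox17 thresholds, with the number of cells under each point and Poisson 95% intervals (counting error only). Col9a1 goes from 8.46 to 52.3 CPM and Col1a2 from 17.5 to 5.88 CPM, while Col18a1, Col2a1 and Col4a1 stay level.

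In the forebrain groups of day 6, Col9a1 and the type IV chains were lower than in the other cells. In the Fezf2 cells 0 of 8 genes at 5 CPM or more were at least 2-fold higher than in the other cells (0.243% of all genes), and in the Wnt8b cells 0 of 8 (1.01% of all genes). Col9a1, Col4a1 and Col4a2 made 3 of 8 that were at least 2-fold lower in the Fezf2 cells (1.24% of all genes) and in the Wnt8b cells (1.98% of all genes). Their ratios were 0.216, 0.193 and 0.185 in the Fezf2 and 0.0376, 0.206 and 0.256 in the Wnt8b cells, and for the type IV chains the other side held the endoderm-like cells. In the Wnt8b cells Col9a1 passed the limit on the level only through the other cells, so that count is a description. Col1a2 was at 16.9 CPM in the Fezf2 and 11.1 CPM in the Wnt8b cells against 8.36 CPM in the Six6 cells. Col2a1 was nearly the same in the neural groups, at 17.4 CPM in the Fezf2, 19.0 in the Wnt8b and 18.4 in the Six6 cells, and so was Col11a1 at 10.7, 9.92 and 13.8 CPM. The Wnt8b cells had 5.95 CPM of Col4a5 and 4.25 CPM of Col4a6, from 21 and 15 UMIs, and the Six6 cells 2.57 and 2.37 CPM.

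The Dppa5a cells of day 6 had little Col9a1, Col1a2, Col11a1 and Col2a1. Of 7 collagen genes at 5 CPM or more, 0 were at least 2-fold higher in them (9.47% of all genes) and 5 at least 2-fold lower (12.6% of all genes). Col9a1, Col11a1 and Col1a2 passed the limit on the level only through the other cells. Col9a1 was at 1.16 CPM with a ratio to the other cells of 0.0494, Col1a2 at 1.01 CPM with 0.0735, Col11a1 at 2.17 CPM with 0.174 and Col2a1 at 5.07 CPM with 0.284. Col4a2, the fifth, had a ratio of 0.490, and the other side of that ratio held the endoderm-like cells. Col18a1 was at 60.7 CPM. Col9a2 was at 4.93 CPM (34 UMIs), 3.38 times the other cells. Its mean over both sides was below 5 CPM, so it entered no count.

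**Figure D5:**
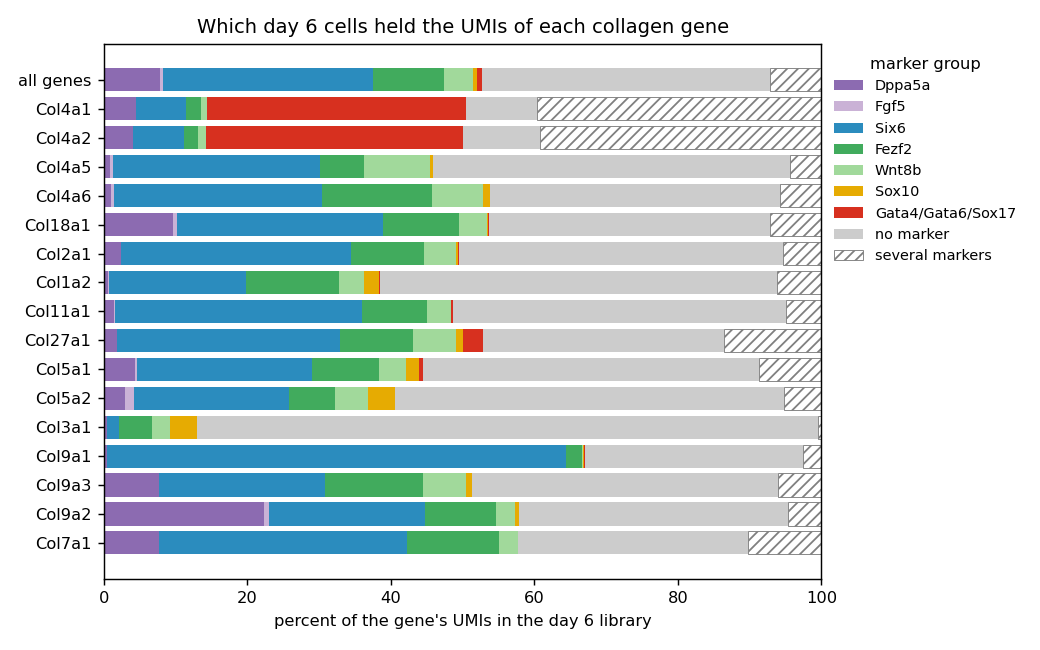
Each bar splits the day 6 UMIs of a measured collagen gene, in percent, over the marker groups, the cells with no marker and the hatched cells past several thresholds, and the top bar does the same for all genes. The endoderm-like cells hold 36.1% of Col4a1 against 0.791% of all UMIs, the Six6 cells 63.9% of Col9a1 against 29.3%, and the no-marker cells 86.6% of Col3a1 against 40.1%.

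Col3a1 lay mostly in cells that passed no marker threshold. These cells held 40.1% of all day 6 UMIs and 86.6% of the Col3a1 UMIs, and Col3a1 stood at 5.88 CPM in them against 0.155 CPM in the Six6 cells. In the 25 Sox10 cells it had 9 UMIs (20.5 CPM), and there Col1a2 had 23 UMIs (52.4 CPM) and Col5a2 12 UMIs (27.4 CPM), which is 7.79, 4.16 and 8.02 times the other cells. The cells with at least 2 Col3a1 UMIs were then looked at, a choice made after the data were seen. They were 51 cells with a median of 15514 UMIs, 46 of them without a marker and 3 of them Sox10 cells, and they held 208 of the 239 Col3a1 UMIs (87.0%).

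These 51 cells had 130 CPM of Prrx1, 101 CPM of Twist1, 55.0 CPM of Tfap2b and 48.6 CPM of Ets1, against 2.72, 1.85, 3.90 and 3.62 CPM in the other cells. Prrx1 and Twist1 are transcription factors of mesenchyme and of the mesenchymal neural crest, and Tfap2b and Ets1 are used by neural crest. Lum, a fibril-binding proteoglycan, had 28 UMIs in them, whereas Dcn, Postn and Foxd3 had 0, each allowing up to 3 UMIs. Pax6 was at 15.3 CPM against 249 and Six6 at 1.28 against 113. Since the cells were picked by Col3a1, their other collagens are given as a description. Col1a2 was at 111 CPM against 11.9, Col5a2 at 43.5 against 3.17, Col23a1 at 24.3 against 1.22 (19 UMIs) and Col18a1 at 10.2 against 50.1. Col1a1 stayed scarce in the whole library at 0.456 CPM.

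On day 4 Col18a1 led in the Dppa5a, Fgf5, Fezf2 and no-marker cells, and the type IV chains were again far higher in the few endoderm-like cells. In the Dppa5a, Fgf5 and Fezf2 cells 0 of 3, 0 of 3 and 0 of 4 collagen genes at 5 CPM or more were at least 2-fold higher than in the other cells, where 4.92%, 0.0237% and 2.67% of all genes were. At least 2-fold lower were 2 of 3 in the Dppa5a cells (4.47% of all genes), 2 of 3 in the Fgf5 cells (1.65%) and 0 of 4 in the Fezf2 cells (4.34%). The lower genes were Col4a1 and Col4a2, with ratios of 0.382 and 0.360 in the Dppa5a and 0.347 and 0.267 in the Fgf5 cells, and the other side of each ratio held the endoderm-like cells. In the Fgf5 cells Col4a2 passed the limit on the level only through the other cells, so that count is a description. Col18a1 was at 50.2 CPM in the Dppa5a, 46.0 in the Fgf5, 65.7 in the Fezf2 and 44.5 in the no-marker cells. Col4a1 was at 8.61, 9.54, 15.4 and 9.06 CPM and Col4a2 at 5.24, 4.94, 9.24 and 5.05 CPM in the same groups. Col9a3 was at 1.82 CPM in the Dppa5a and 4.24 CPM in the Fgf5 cells, and Col9a2 at 3.29 and 3.59 CPM. The 7 endoderm-like cells already had 3019 CPM of Col4a1 and 2189 CPM of Col4a2. The 19 Six6 cells had 16.4 CPM of Col1a2 and 12.3 CPM of Col9a1, the latter from 3 UMIs.

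Setting cells of the same marker side by side separated the day ratios further. In the Dppa5a cells 2 of 3 collagen genes at 5 CPM or more were at least 1.5-fold higher on day 6 (8.34% of all genes) and 0 were lower (3.18%). These were Col4a1, with 8.61 and 45.2 CPM and a ratio of 5.25 (4.26 to 6.51), and Col4a2, with 5.24 and 30.1 CPM and a ratio of 5.75 (4.41 to 7.56). The endoderm markers were at 24.8 CPM in the day 6 Dppa5a cells and 8.40 CPM in the day 4 ones, a ratio in the same direction, and their part in these values was not tested. Col18a1 had 50.2 and 60.7 CPM.

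In the Fezf2 cells, 71 on day 4 and 600 on day 6, 3 of 6 collagen genes were at least 1.5-fold higher on day 6 (17.7% of all genes) and 0 were lower (10.6%). Col11a1 and Col1a2, 2 of the 3, passed the limit on the level only through day 6, so the count supports nothing further. Col11a1 had 0 UMIs on day 4 and 93 UMIs (10.7 CPM) on day 6, which is at least 3.49-fold higher when 3 UMIs are set as the floor for the day 4 group. Col1a2 had 1 and 146 UMIs (1.03 and 16.9 CPM), a ratio of 16.4 with an interval from 2.90 to 653. Col2a1 had 7.19 and 17.4 CPM, a ratio of 2.43 (1.15 to 6.14). Col18a1, Col4a1 and Col4a2 lay within the limit, with ratios of 0.815, 1.07 and 1.29. Whether the type IV ratios of the Dppa5a and Fezf2 cells differ was not tested.

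Genes that serve collagens were followed as lists. Of 28 genes of collagen synthesis, 25 were found and 23 measured, of which 11 were at least 1.5-fold higher on day 6 and 1 lower, beside 18.5% and 11.7% of all genes. The median log2 day ratio of the 23 was 0.49. Serpinh1, the collagen chaperone, had 44.3 and 137 CPM, a ratio of 3.09. Sparc, a matrix protein that binds collagen, had 130 and 360 CPM, a ratio of 2.78. Tmem38b, an ion channel of the endoplasmic reticulum needed for collagen modification, had a ratio of 2.36 and Kdelr2, which returns chaperones to that compartment, 1.88. P4hb, a subunit of prolyl 4-hydroxylase, had 155 and 158 CPM.

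In the endoderm-like cells of day 6, 20 of the 22 synthesis genes at 5 CPM or more were at least 2-fold higher than in the other cells and 0 lower, beside 24.2% and 14.4% of all genes. Some of the 20, such as Creb3l1 at 48.9 CPM, passed the limit on the level only through the endoderm-like cells, so the count is a description. Sparc stood at 12929 CPM there, 49.7 times the other cells, Serpinh1 at 2289 CPM, 19.2 times, and P4hb at 873 CPM, 5.75 times. Plod2, a lysyl hydroxylase, at 630 CPM and 22.3 times, and P4ha1, a prolyl hydroxylase subunit, at 380 CPM and 13.7 times, were chosen after their values were seen. In the Six6 cells Serpinh1 was at 77.8 CPM and Sparc at 137 CPM.

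Of 14 genes that trim or crosslink collagens, 7 were measured, of which 2 were higher and 2 lower on day 6, beside the same 18.5% and 11.7%. Pcolce and Pcolce2, which help to trim procollagens, had ratios of 0.522 and 0.554, and the crosslinking enzymes Pxdn, which acts on type IV collagen, and Loxl2 had 1.27 and 0.946. In the endoderm-like cells Pxdn was at 118 CPM, 4.47 times (3.54 to 5.57) the other cells, and Loxl2 at 282 CPM, 8.80 times (7.57 to 10.2). The procollagen protease Bmp1 was at 7.19 CPM there, with a ratio of 2.03 whose interval from 0.654 to 4.78 includes 1. Of 11 collagen receptor genes 3 were measured and none differed between days by 1.5-fold. Itgb1, the shared beta subunit of collagen-binding integrins, had 56.4 and 59.0 CPM, and Ddr1, a receptor kinase for collagen, 12.6 and 11.3 CPM.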

How the data were processed

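The deposited matrices give raw UMI counts by gene and barcode. The authors had aligned the reads to mm10, and the deposited values carry no normalization. According to the submitters' processing notes the tools were Cell Ranger 2.0.1 and, for later steps, Seurat 2.3.4. Depth was 98643495 UMIs in the kept cells of day 4 and 87800738 in those of day 6.

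Of 9114 and 7446 barcodes, those with 500 to 5000 genes, 500 to 26000 UMIs, at most 10% mitochondrial, at least 20% ribosomal protein and at most 0.5% haemoglobin counts were kept. UMIs were summed over cells and divided by the total (CPM). Levels carry exact Poisson, ratios conditional binomial and shares Clopper-Pearson 95% intervals, none of which includes more than counting error. No test was run, since each day is 1 library. Free RNA was not removed and no doublet caller was run, so doublets were left in, except that cells past several marker thresholds were left out of groups. Named are the collagen genes at a mean of at least 1 CPM over days or 5 CPM in a group of at least 50 cells. Of the lists of genes that serve collagens, the 4 members with the largest absolute log2 day ratio, higher or lower, are named. These had a mean of at least 5 CPM, and Serpinh1, P4hb, Sparc and Itgb1 are named with them. Other genes, among them scarce collagens, were picked once their values had been seen. The collagen genes, markers and lists were chosen with earlier results of these data known. Coordinates come from GENCODE vM21 (GRCm38) and promoters from RefSeq (GRCm38.p6), where 35 of the 44 genes matched, with 38 windows. Python 3.11.15, numpy 2.4.6, scipy 1.17.1, pandas 2.3.3 and matplotlib 3.10.9 were used, and the scripts were tested on simulated data. Alternatives were other cell filters, totals, scalings, level limits, fold limits and marker thresholds, thinning, and removal of the 5% of cells with the most UMIs. Some marker genes are not reported here.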

Additional observations from a re-analysis of the deposited data

How the results depend on the processing

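No paired analysis was possible because each day is 1 library. No day ratio past the fold limit turned its direction. Nor did the group ratios followed, which were Col9a1 in the Six6 cells and Col4a1, Col4a2 and Col27a1 in the endoderm-like cells of day 6. Direction was not followed for other group calls, such as the lower type IV chains of the Dppa5a cells. Col18a1, which was within the limit, went from a day ratio of 1.07 to 0.974 when centred on the median of all genes. Of 112 summary values under an alternative, 87 stayed near the reported value and 25 moved, and of 165 single ratios 141 and 24. The 12 collagen genes higher on day 6 became 4 at a mean of 10 CPM and 26 with no level limit, and the 3 lower ones became 0, 8 and, at a 2-fold limit, 1. With cells past several thresholds kept in each group, the 0 genes higher in Dppa5a cells became 2 on each day and those of the Fezf2 cells of day 4 became 1. That setting puts 37 day 4 cells and 89 day 6 cells past the endoderm threshold into the Dppa5a groups, which otherwise hold none. The Fezf2 count was also 1 with markers at 1 UMI, at a mean of 1 CPM and at 1.5-fold. A count of 1 in place of 0 came up in the Dppa5a cells of day 6 at a mean of 1 CPM and with totals lacking mitochondrial and ribosomal protein genes, and in the Wnt8b cells under both and at 1.5-fold. Between days in the Fezf2 cells, 5 genes in place of 3 were higher with markers at 1 UMI and 1 in place of 0 was lower at 3 UMIs. The endoderm-like cells held 41.8% of Col4a1 and 41.2% of Col4a2 UMIs at 3 UMIs, and 74.4% and 73.8% with cells past several thresholds kept. The Six6 cells held 66.8% of Col9a1 UMIs at 1 UMI, 52.5% at 3 UMIs and 66.2% with those cells kept. The causes were not tested. Keeping cells past several thresholds for these shares, leaving out every endoderm-like or Sox10 cell, the Six6 grouping and the Col3a1 cells were chosen after the data were seen. Over all alternatives the day ratio of Col18a1 ranged from 0.974 to 1.11, of Col4a1 from 2.36 to 4.48, of Col4a2 from 3.24 to 5.37 and of Col9a1 from 47.9 to 73.0. No ratio of Col3a1 could be had from thinned cells, since none of day 4 kept a UMI. Not run were the endoderm-like cells of day 6 at 1 UMI with their shares and the Fezf2 cells of day 4 at 3 UMIs, which had fewer than 50 cells, and the endoderm-like cells against other cells without them. Depth limits low genes most: with 2 UMIs on day 4, the ratio of Col3a1 has an interval from 36.8 to 1115.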
